A study of Mus musculus with 6 samples.

Results

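Mitochondrial ribosomal protein genes were examined in kidneys of mice made to overexpress adiponectin in the tubular epithelium. The genes were chosen by symbol alone, as protein-coding genes of the GENCODE M21 annotation that begin with *Mrpl* or *Mrps* followed by a digit. There are 78 of them among the 21995 protein-coding genes of the deposited table, 49 named for the large ribosomal subunit (*Mrpl*) and 29 for the small subunit (*Mrps*). Whole kidneys were compared between male KsprtTA mice (Control) and male KsprtTA/TRE-Adiponectin mice (KSPAPN), both on a C57BL/6 background. In both groups the reverse tetracycline transactivator (rtTA) is driven by the kidney-specific Ksp-cadherin promoter, which is active in tubular epithelium, from proximal tubule through collecting duct. In KSPAPN mice doxycycline then switches on an adiponectin transgene. Mice of both groups received doxycycline at 600 mg/kg chow for 4 days, and the age at harvest is not given in the sources used here. Each of the 3 libraries per group was made from pooled RNA of 3 mice, and the spread between libraries is that between pools. In the sample labels the Control genotype is WT and the tissue kidney, although their note on RNA extraction mentions liver.

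The mitochondrial ribosome (mitoribosome) translates the mRNAs encoded by mitochondrial DNA, all of which specify core subunits of the respiratory chain and of ATP synthase. Its rRNAs come from mitochondrial DNA as well, whereas every one of its proteins is encoded in the nucleus, made in the cytosol and imported. Some of these proteins have counterparts in bacterial ribosomes, and others exist only in mitochondria. Proximal tubule cells are rich in mitochondria and draw most of their ATP from oxidative phosphorylation.

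The libraries held between 17183358 and 20871173 reads counted on genes. *Adipoq*, which encodes adiponectin, had 2, 0 and 2 counts in the Control libraries and 24629, 17483 and 26811 in the KSPAPN libraries, as the labels require. Proximal tubule markers such as *Slc34a1* (mean FPKM 1212 in Control) and *Lrp2* (122) were abundant. Hepatocyte markers were not uniform. *Cyp7a1* was listed at 0 in every library but KSPAPN replicate 2, where its FPKM was 0.0131. Of 8 listed hepatocyte markers, however, 5 had enough counts to be tested. The summed FPKM of these 5 was 142, 156 and 78.7 in Control and 56.3, 79.2 and 50.4 in KSPAPN. FPKM is the authors' measure of level, fragments counted on a gene after scaling for its exon length and for the size of the library. All fold changes are KSPAPN against Control on the log2 scale, from edgeR's quasi-likelihood test on the counts, with p-values adjusted over 16017 genes by the Benjamini-Hochberg method. Nothing in the labels ties libraries to separate cohorts, so p-values measure the spread between these pools.

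Most mitochondrial ribosomal protein genes had slightly lower levels in KSPAPN than in Control kidneys. Of the 77 genes that passed the filter on low counts, 69 had a lower estimate in KSPAPN, with a median log2 fold change of -0.20, a level 13.1% below Control. The median over all 16017 genes was 0.012, and 48.1% of all genes had a lower estimate. *Mrpl12*, *Mrpl2* and *Mrpl38* fell at an adjusted p under 0.05, and 0 members rose. Among all genes 2.25% fell and 0.393% rose at this threshold, which puts the 3 of 77 members close to the background. Before adjustment, 33 members had p under 0.05 and a lower estimate and 2 had p under 0.05 and a higher one, where 11.2% of all genes passed as lower and 7.52% as higher. The other 42 members did not pass either threshold.

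**Figure D1:**
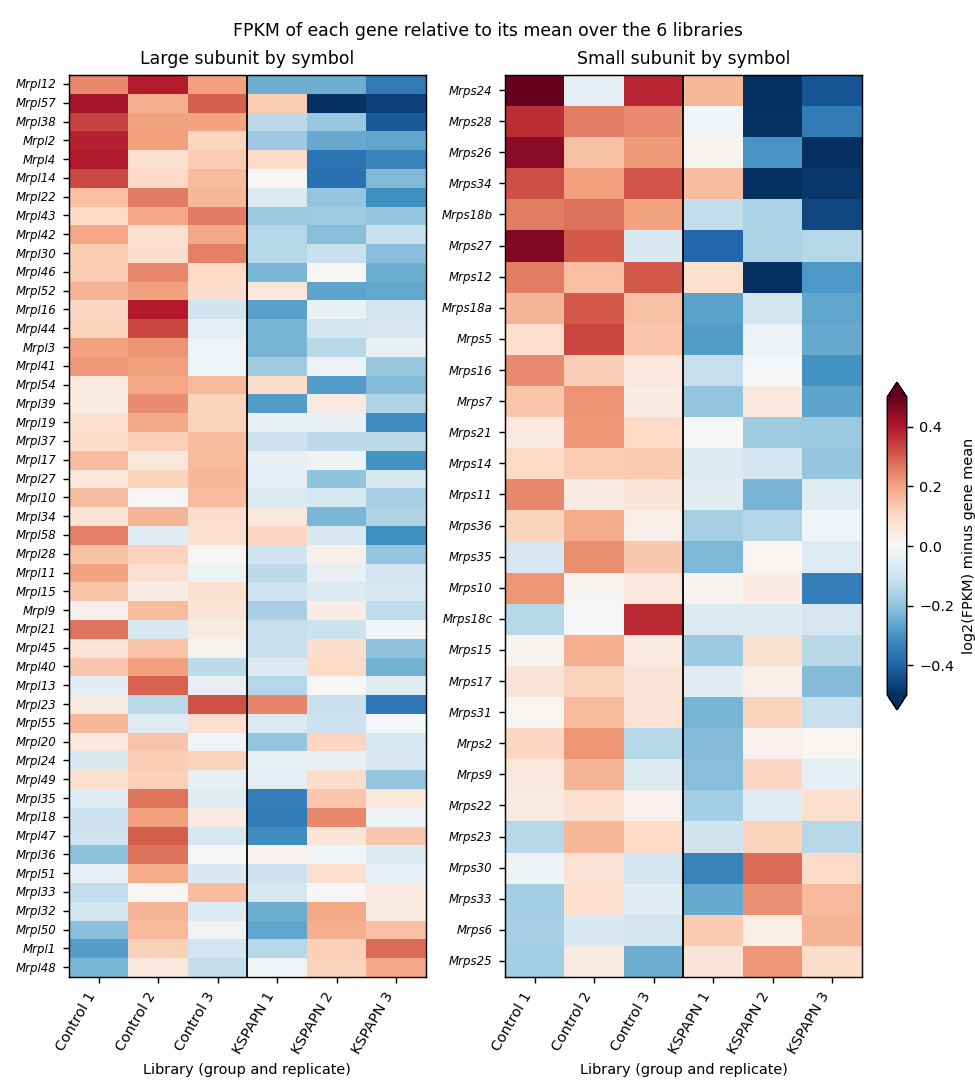
FPKM of the 77 tested mitochondrial ribosomal protein genes in each library, as log2(FPKM) minus the mean of the gene over the 6 libraries, with genes ordered by their fold change within each subunit. Red is above and blue below the mean of the gene, and the colour scale ends at 0.5 in either direction. Most rows are red in the 3 Control libraries and blue in the 3 KSPAPN libraries, and the rows at the bottom of each panel do not show this.

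The groups also separated library by library. The median deviation of the 77 genes from their own means was 0.095, 0.157 and 0.082 in Control replicates 1 to 3, on the log2 scale of CPM (counts scaled by library size). It was -0.093, -0.049 and -0.141 in KSPAPN replicates 1 to 3. The groups did not overlap in this median. The highest value of a gene lay in a Control library for 67 of the 77 genes and the lowest in a KSPAPN library for 68, with both holding for 62. Of all 16017 genes tested, 3013, 2625 and 1769 had their highest value in Control replicates 1 to 3. Their lowest value lay in KSPAPN replicates 1 to 3 for 2893, 2725 and 2670 genes. No count over all genes is given here for both together. In FPKM, 36 members (46.8%) had all KSPAPN libraries below all Control libraries, and 2 had them all above. Among all genes tested 13.5% had all KSPAPN libraries below and 10.8% all above.

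The summed FPKM of the members was 1840, 1904 and 1801 in Control and 1594, 1572 and 1510 in KSPAPN. The members took 0.355%, 0.349% and 0.349% of the gene counts in Control and 0.335%, 0.310% and 0.304% in KSPAPN. Both measures separated the groups.

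GC content and transcript length moved with this result. The longest transcripts of the members were short, with a median of 1884 bases against 3146 bases for all genes tested, and had a median GC content of 49.7%, against 49.5% for all genes tested. Across the 77 members the log2 fold change had a Pearson correlation of -0.46 with GC content and of 0.25 with log2 length, where all points share the same 6 libraries. When a smooth trend of each library against GC content and length was removed, the median of the members became -0.10 and that of all genes 0.043. In that fit 58 of the 77 members had a lower estimate. At an unadjusted p under 0.05, 23 members were lower and 1 was higher, where 9.16% of all genes were lower and 9.23% were higher. After adjustment *Mrps5* was lower and *Mrps6* was higher, where 1.87% of all genes were lower and 0.606% were higher, and *Mrpl12* had an adjusted p of 0.062. The correction changed short transcripts more than long ones. In the 33 members with a longest transcript under 1500 bases the median went from -0.22 to -0.014 with the correction, and in the 44 longer ones it was -0.17 in both fits. The part of GC content and length in the result was not tested beyond these fits.

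**Figure D2:**
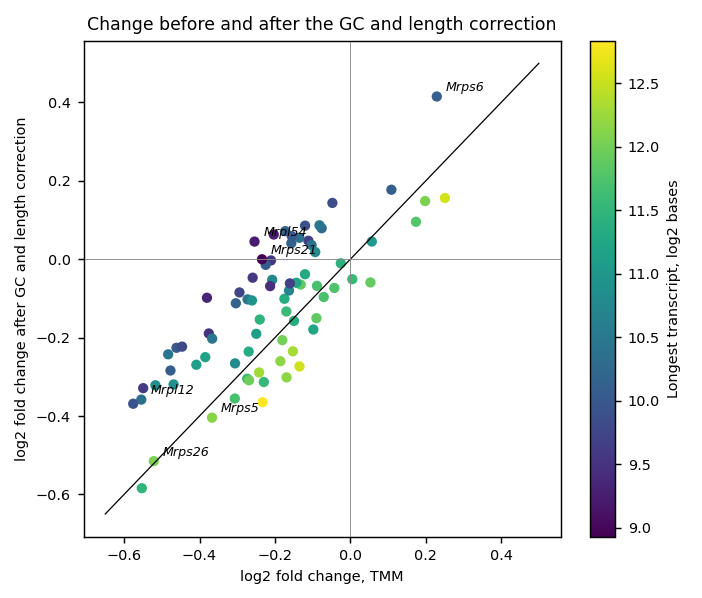
log2 fold change of the 77 tested members with TMM normalization (x axis) and after the GC and length correction (y axis), with the colour giving the log2 length of the longest transcript in bases. The diagonal marks equal values. Short transcripts (dark) lie above the diagonal, with higher estimates after the correction, and long ones lie on both sides of it.

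Markers of cell types moved with the groups too. Of 10 proximal tubule markers, 9 had a lower estimate and *Slc7a13* and *Slc22a6*, both transporters of that segment, fell (log2 fold changes -1.46 and -0.46, adjusted p = 0.0259 and 0.0388 with edgeR). The median log2 fold change of these 10 markers was -0.28. Their median deviation from their own means was 0.248, 0.201 and 0.059 in Control replicates 1 to 3. It was -0.310, -0.126 and -0.081 in KSPAPN replicates 1 to 3, without overlap between groups. The summed level of these markers, which the most abundant ones dominate, was 26972 to 36026 CPM in Control and 21476 to 28517 CPM in KSPAPN. These sums overlapped, and none of the markers was at 0. For 9 markers of the thick ascending limb and distal nephron it was 4918 to 5420 CPM in Control and 4994 to 6227 CPM in KSPAPN, and the list went both ways. Of the 9, 4 had a lower and 5 a higher estimate. At an unadjusted p under 0.05, where 11.2% of all genes were lower and 7.52% higher, 3 were lower and 1 was higher. The 1 was *Slc12a1*, the sodium-potassium-chloride cotransporter of the thick ascending limb, which rose (log2 fold change 0.52, adjusted p = 0.0437 with edgeR) but did not pass after the GC and length correction (0.46, adjusted p = 0.0748 with edgeR). The lowest estimate of the list, -0.71, was that of *Slc4a1*, an anion exchanger gene (adjusted p = 0.0893, edgeR). All 6 glomerular markers had a higher estimate (217 to 340 CPM against 302 to 427 CPM). None passed after adjustment, and 1 was higher at an unadjusted p under 0.05 (edgeR). Of 9 endothelial and immune markers 7 were tested and none passed at either threshold (179 to 211 CPM against 168 to 215 CPM). Of 8 hepatocyte markers 5 were tested, 3 with a lower and 2 with a higher estimate, and *Ttr*, which encodes transthyretin, fell while *Alb*, the albumin gene, had an estimate of 0.55 with a standard error of 0.68 (95.4 to 194 CPM against 63.9 to 97.2 CPM for the list). Of 6 adipocyte markers 3 were tested (37.4 to 39.7 CPM against 40.3 to 58.5 CPM). None of them passed after adjustment, and 1 was higher at an unadjusted p under 0.05 (edgeR). *Lep* was listed at 0 in every library but KSPAPN replicate 1. The part of these markers in the result was not tested. In whole kidney RNA, fewer cells of a type and less RNA per cell cannot be told apart.

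Genes of the large and of the small subunit had estimates of similar size before the GC and length correction. Of the 48 large-subunit genes tested, 44 had a lower estimate, with a median log2 fold change of -0.19, and 20 were lower at an unadjusted p under 0.05. Of the 29 small-subunit genes, 25 had a lower estimate, with a median of -0.21, and 13 were lower and 2 were higher at that threshold. Among all genes 11.2% were lower and 7.52% higher at it. The ratio of the summed FPKM of large-subunit to small-subunit genes lay between 2.15 and 2.24 in all 6 libraries, and the groups overlapped. Symbols do not always tell where a protein sits. The products of *Mrps18a* and *Mrps30* are part of the large subunit (mL66 and mL65), and *Mrps36* encodes no ribosomal core protein but a component of the 2-oxoglutarate dehydrogenase complex. With the genes placed by their products, the medians were -0.19 for 50 large-subunit genes and -0.21 for 26 small-subunit genes. After the GC and length correction the medians were -0.091 (large) and -0.18 (small) by symbol, and -0.091 and -0.19 by product. Whether the subunits differ was not tested.

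Members with a bacterial counterpart and those found only in mitochondria both had mostly lower estimates. Of 45 genes of the first kind 42 had a lower estimate (median -0.18), and of 31 of the second kind 26 had one (median -0.24). A set of 38 members has no exon that overlaps another gene and shares under 1% of its sequence, in stretches of 100 bases, with other transcripts. In this set 35 had a lower estimate and the median was -0.18. At an unadjusted p under 0.05, 15 (39.5%) were lower, where 11.2% of all genes were.

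**Figure D3:**
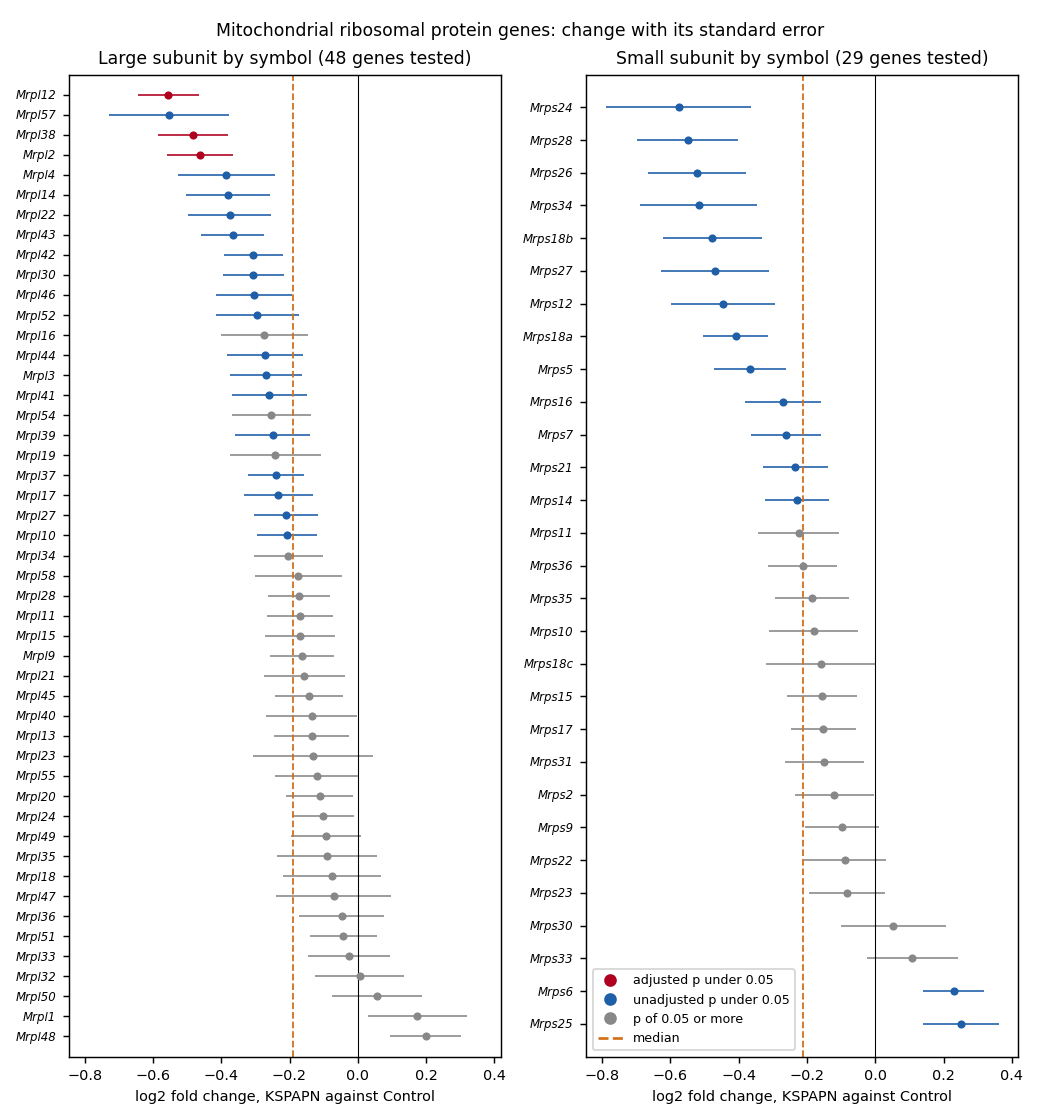
log2 fold change with its standard error for each tested member, large subunit on the left and small subunit on the right, ordered by the estimate. Red points passed an adjusted p under 0.05, blue points an unadjusted p under 0.05 and grey points neither, and the dashed lines mark the medians of -0.19 and -0.21. The 3 red points are *Mrpl12*, *Mrpl38* and *Mrpl2*.

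Among the large-subunit genes the smallest p was that of *Mrpl12* (chr11:120484613-120489065 on the plus strand, GRCm38). Its product, bL12m, forms the stalk that recruits translation factors to the ribosome and is also known to bind the mitochondrial RNA polymerase. *Mrpl12* had an FPKM of 79.5, 88.5 and 77.6 in the Control libraries and of 56.9, 56.9 and 52.7 in the KSPAPN libraries. Every KSPAPN library lay below every Control library, with means of 81.9 ± 5.82 and 55.5 ± 2.43 (SD, n = 3 libraries each). The log2 fold change was -0.55 ± 0.090 (SE), a level 31.9% below Control (adjusted p = 0.0150, edgeR). After the GC and length correction it was -0.36 and no longer passed (adjusted p = 0.0620, edgeR). The adjusted p was 0.0702, 0.0610 and 0.0795 without Control replicate 1, Control replicate 2 or KSPAPN replicate 3.

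*Mrpl2* (chr17:46646229-46650139, plus strand) encodes uL2m, a protein at the core of the large subunit near the site of peptide bond formation. Its FPKM was 63.4, 56.0 and 52.3 in Control and 42.8, 40.8 and 40.6 in KSPAPN, with no overlap and the highest value in Control replicate 1. It fell by 0.46 on the log2 scale (SE 0.097, adjusted p = 0.0378 with edgeR). *Mrpl38* (chr11:116131817-116138868, minus strand) encodes mL38, a mitochondria-specific protein of the central protuberance. Its FPKM was 35.6, 32.5 and 32.4 in Control and 25.8, 24.7 and 21.1 in KSPAPN, again with no overlap. It fell by 0.48 (SE 0.10, adjusted p = 0.0379 with edgeR). The GC content of the longest transcript was 57.5% in *Mrpl2* and 59.6% in *Mrpl38*, and after the GC and length correction their log2 fold changes were -0.23 and -0.24, past no adjusted threshold. Leaving out any one library other than Control replicate 3 or KSPAPN replicate 1 took *Mrpl2* past 0.05 (0.0840 to 0.182), and any other than KSPAPN replicate 1 did so for *Mrpl38* (0.0796 to 0.182).

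The next large-subunit genes by p missed the adjusted threshold. *Mrpl43*, whose product is specific to mitochondria, had an FPKM of 34.7, 37.0 and 38.7 in Control and 28.4, 28.6 and 28.3 in KSPAPN. The KSPAPN libraries lay close together and below all Control libraries, with a log2 fold change of -0.37 ± 0.091 (adjusted p = 0.0657, edgeR). Its exons overlap those of *Twnk*, the mitochondrial DNA helicase gene on the other strand, over 507 bases. *Mrpl42* and *Mrpl30* had log2 fold changes of -0.31 each, with no overlap between groups (adjusted p = 0.0920 and 0.0991 with edgeR). *Mrpl57*, named after its value was seen, had the second-largest negative estimate of the large-subunit genes, -0.55, but a standard error of 0.18 (adjusted p = 0.129, edgeR).

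Proteins of known function elsewhere in the large subunit gave smaller values. The stalk base genes *Mrpl10* and *Mrpl11* had log2 fold changes of -0.21 ± 0.088 and -0.17 ± 0.096 (SE). *Mrpl45*, whose product tethers the mitoribosome to the inner membrane, had one of -0.14 ± 0.10, and *Mrpl58*, whose product releases peptides from stalled ribosomes, one of -0.17 ± 0.13. None of these 4 passed an adjusted p of 0.05.

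Higher estimates were few in the large subunit. *Mrpl48* had a log2 fold change of 0.20 ± 0.10 (SE) and *Mrpl1*, the gene of the L1 stalk protein uL1m, one of 0.17 ± 0.14. *Mrpl50* had one of 0.057 ± 0.13. None of these passed, and *Mrpl48* overlaps *Rab6a* on the opposite strand over 708 exon bases, so that reads of the pair cannot be told apart where strand was not used in counting.

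Among the 29 small-subunit genes by symbol 0 passed the adjusted threshold with edgeR, where 2.25% of all genes were lower and 0.393% higher. With DESeq2, 3 of the 29 were lower at it, where 5.11% of all genes were. With the genes placed by their products, 2 of 26 were lower with DESeq2, since *Mrps18a* encodes a protein of the large subunit. *Mrps18a* had an FPKM of 12.7, 14 and 12.5 in Control and 9.40, 10.6 and 9.47 in KSPAPN. The groups did not overlap, and the log2 fold change was -0.41 ± 0.096 (SE, adjusted p = 0.0532 with edgeR). It is one of 3 mammalian relatives of the bacterial S18 protein, and the others of that family were also measured. *Mrps18b* (mS40) had a log2 fold change of -0.48 ± 0.14 and *Mrps18c* (bS18m) one of -0.16 ± 0.16, with adjusted p = 0.113 and 0.642 (edgeR). In *Mrps18b* 56.9% of stretches of 100 bases also occur in transcripts of *Gm13552* or *Gm16279*. Its exons overlap those of *Gm16279* on the other strand over 638 bases, so its count is uncertain. *Mrps18c* was high in Control replicate 3 (FPKM 16.1, against 11.2 and 12.4 in the other Control libraries), and its KSPAPN values of 11.7 to 11.8 lay between them. The difference between these genes was not tested.

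*Mrps28*, which encodes bS1m, had an FPKM of 34.2, 31.7 and 31.2 in Control and 26.3, 18.8 and 20.8 in KSPAPN. *Mrps26*, a gene found only in mitochondrial ribosomes, had 16.5, 13.3 and 14 in Control and 12.2, 9.83 and 8.36 in KSPAPN. In both genes KSPAPN replicate 1 was the KSPAPN library nearest to Control, and the groups did not overlap. Their log2 fold changes were -0.55 ± 0.15 and -0.52 ± 0.14 (SE), with adjusted p = 0.0807 and 0.0865 (edgeR).

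The same library stood out in *Mrps34* and *Mrps12*. *Mrps34* had an FPKM of 18.6 in KSPAPN replicate 1 and of 11.7 and 11.9 in the other KSPAPN libraries, against 19.2 to 20.8 in Control. Most of its sequence (77.2% of stretches of 100 bases) also occurs in transcripts of other genes, including the overlapping *Nme3* and *Mapk8ip3*, so its count is uncertain. *Mrps12*, the gene of the decoding-centre protein uS12m, had 29.9 in KSPAPN replicate 1, 19.8 and 23.1 in the others and 31.3 to 34.9 in Control. Their log2 fold changes were -0.52 ± 0.17 and -0.45 ± 0.15 (SE). Without KSPAPN replicate 1, 11 members were lower at an adjusted p under 0.05, these 2 among them, where 3.47% of all genes were. Without Control replicate 1, Control replicate 2 or KSPAPN replicate 3 there were 0, where 0.206%, 0.700% and 0.366% of all genes were lower. At an unadjusted p under 0.05, 21, 22 and 19 members were lower in these fits, where 7.93%, 9.30% and 8.67% of all genes were.

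*Mrps5* (uS5m), a gene with a long transcript of moderate GC content (46.9%), had a log2 fold change of -0.37 ± 0.11 (SE, adjusted p = 0.0976 with edgeR). After the GC and length correction it was -0.40, with an adjusted p of 0.0446, the one member lower in that fit. *Mrps36* and *Mrps30* had log2 fold changes of -0.21 ± 0.10 and 0.053 ± 0.15 (SE).

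*Mrps6* had a higher estimate. It encodes bS6m, a small-subunit protein with a bacterial counterpart. Its FPKM was 28.1, 29.9 and 29.6 in Control and 34.4, 32.2 and 35.5 in KSPAPN. All KSPAPN libraries lay above all Control libraries, with a log2 fold change of 0.23 ± 0.089 (SE, adjusted p = 0.202 with edgeR). After the GC and length correction it was 0.42, with an adjusted p of 0.0336. The gene shares 464 exon bases with *Slc5a3* and *Gm49711* on the same strand. *Mrps25* was the other member higher at an unadjusted p under 0.05, with an FPKM of 4.17, 4.84 and 3.96 in Control and 4.92, 5.46 and 5.0 in KSPAPN, which do not overlap. Its log2 fold change was 0.25 ± 0.11 (SE, adjusted p = 0.258 with edgeR), and 4590 of its exon bases lie opposite exons of *Nr2c2*. *Mrps33* had a log2 fold change of 0.11 ± 0.13 (SE).

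The members ranged over more than an order of magnitude in level. *Mrps21* was the most abundant, with an FPKM of 109, 123 and 113 in Control and 106, 93.4 and 92.9 in KSPAPN, and *Mrpl34* followed, with 103, 111 and 105 in Control and 102, 84.0 and 88.8 in KSPAPN. These neighbours differ by less than their spread. In order of mean FPKM, *Mrpl12* and *Mrpl54* came next, at 68.7 and 63.4 over the 6 libraries, and *Mrps7* (45.6) and *Mrps6* (31.6) were the next of the small subunit. *Mrps21* and *Mrpl54* have short, GC-rich transcripts, and their log2 fold changes of -0.23 and -0.25 became 0.00 and 0.045 after the GC and length correction.

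At the low end, the least abundant tested genes of the large subunit by symbol were *Mrpl33* and *Mrpl15*, with mean FPKM of 3.09 and 3.12. Those of the small subunit by symbol were *Mrps10*, *Mrps30* and *Mrps25*, with 3.38, 3.40 and 4.72. *Mrpl33* had values of 2.83 to 3.43 in Control and 2.91 to 3.18 in KSPAPN, which overlapped. *Mrpl15* and *Mrps10* had log2 fold changes of -0.17 ± 0.10 and -0.18 ± 0.13 (SE). *Mrpl53* was listed at 0 in all 6 libraries and could not be tested. Of its 790 exon bases 695 lie in exons of *Gm42688* on the same strand, and the part of this overlap in the 0 was not tested.

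**Figure D4:**
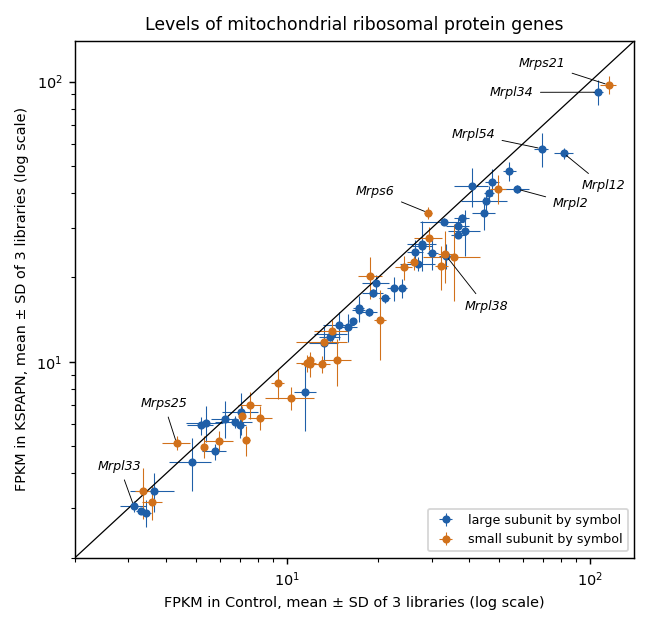
Mean FPKM of each tested member in Control (x axis) and KSPAPN (y axis) on log scales, with bars for the SD of 3 libraries. The line marks equal levels. Points from *Mrps21* at 106 down to *Mrpl33* at 3.09 mostly lie below the line, and *Mrps6* and *Mrps25* lie above it.

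Promoters of members were compared for short motifs, since most members had estimates of one sign. Windows of 300 bases (250 before to 50 after the RefSeq start, GRCm38.p6) were matched for 69 of the 78 members, giving 75 windows. *Mrps35*, *Mrpl4*, *Mrpl13*, *Mrpl19*, *Mrps34*, *Mrpl38*, *Mrpl54*, *Mrps28* and *Mrpl15* were not matched. On either strand, CCGGAAG, a core bound by ETS factors such as GABPA (also known as NRF2 in mitochondrial biology), was in 34.7% of member windows and in 15.9% of 13872 windows of tested protein-coding genes. GCGCNTGCG, a core of the site of nuclear respiratory factor NRF1, was in 24.0% and 12%. AAGATGGC, a core of the YY1 site, was in 16% and 4.02%. GGGCGG, the core of the SP1 site, was in 52.0% and 60.1%. A match is a run of letters and not a bound site. The median log2 fold change of members with and without a match was -0.23 and -0.16 for CCGGAAG, -0.27 and -0.16 for GCGCNTGCG, -0.25 and -0.17 for AAGATGGC, and -0.22 and -0.17 for GGGCGG. All 8 of these groups of members had a negative median. Since 69 of the 77 tested members had a lower estimate, most groups drawn from them would. The sign of these medians therefore says nothing about the motifs.

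For 6 members the window is printed from 100 bases before the start to 50 bases after it, 5′ to 3′ in the direction of transcription. They belong to the member with the smallest p, to 3 members that came near the adjusted threshold, to the most abundant member and to *Mrps6*, which had a higher estimate. Capitals mark CCGGAAG, GCGCNTGCG and AAGATGGC on either strand.
Mrpl12 (chr11:120484537-120484686, plus strand): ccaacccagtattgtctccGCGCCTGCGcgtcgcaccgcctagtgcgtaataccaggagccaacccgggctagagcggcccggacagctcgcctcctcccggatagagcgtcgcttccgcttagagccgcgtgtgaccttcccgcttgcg
Mrps18a (chr17:46110904-46111053, plus strand): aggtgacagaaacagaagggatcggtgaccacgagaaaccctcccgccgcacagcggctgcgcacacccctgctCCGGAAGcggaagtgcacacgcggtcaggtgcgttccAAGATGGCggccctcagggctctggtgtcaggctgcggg
Mrpl43 (chr19:45006393-45006542, minus strand): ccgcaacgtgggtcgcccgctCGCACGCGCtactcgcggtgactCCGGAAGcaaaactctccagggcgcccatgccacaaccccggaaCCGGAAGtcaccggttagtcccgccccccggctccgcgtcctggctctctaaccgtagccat
Mrps26 (chr2:130563657-130563806, plus strand): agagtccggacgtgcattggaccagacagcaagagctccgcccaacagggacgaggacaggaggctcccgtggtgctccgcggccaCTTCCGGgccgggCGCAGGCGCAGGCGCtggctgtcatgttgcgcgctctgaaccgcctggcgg
Mrps21 (chr3:95871465-95871614, minus strand): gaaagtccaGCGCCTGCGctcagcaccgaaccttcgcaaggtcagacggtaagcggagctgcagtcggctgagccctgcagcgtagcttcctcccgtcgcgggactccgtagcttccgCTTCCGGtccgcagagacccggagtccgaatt
Mrps6 (chr16:92058236-92058385, plus strand): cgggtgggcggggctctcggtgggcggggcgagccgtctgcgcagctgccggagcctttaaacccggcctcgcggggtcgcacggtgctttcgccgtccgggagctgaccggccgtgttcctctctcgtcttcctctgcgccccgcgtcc
*Mrpl12* holds 1 NRF1 core, 81 bases before the start. *Mrpl43* holds 2 ETS cores and 1 NRF1 core, and *Mrps18a* 1 ETS core just before and 1 YY1 core just after the start. *Mrps26* has 1 ETS core and 2 overlapping NRF1 cores around the start, and *Mrps21* 1 ETS core and 1 NRF1 core. *Mrps6* holds none of the 3 in these 150 bases and has GGGCGG on the forward strand in 2 places, left in lower case.

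Many members have a neighbour on the opposite strand that starts close by, head to head. Of the 77 tested members, 33 (42.9%) have such a protein-coding start within 1000 bases, against 15.2% of 13805 tested protein-coding genes. The start can lie before the member or inside it, and in the latter case the genes overlap. Whether such pairs share a promoter was not tested. Of the 27 partners that were tested and are no members, 19 had a lower estimate, with a median log2 fold change of -0.072. The examples here were chosen after their values were seen. *Mrpl46* and *Mrps11* are partners of each other, with exons that overlap over 173 bases, and had log2 fold changes of -0.30 and -0.22. *Mrpl47* (-0.071) is paired with *Ndufb5*, a complex I subunit gene (-0.39), and *Mrps18b* (-0.48) with *Ppp1r10* (0.28). Partners thus ranged in both directions, and their differences from the members were not tested.

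The other genes of the mitoribosome and of its assembly mostly had lower estimates too. Of 5 mitoribosome subunit genes that carry no *Mrp* symbol, 4 had a lower estimate (median -0.11). *Gadd45gip1* (mL64) had an FPKM of 9.13, 9.46 and 10.2 in Control and 8.30, 5.42 and 4.59 in KSPAPN, without overlap and with a log2 fold change of -0.64 ± 0.20 (SE, adjusted p = 0.125 with edgeR). *Aurkaip1* (mS38) had a log2 fold change of -0.21, *Ptcd3* (mS39) of -0.11, *Chchd1* (mS37) of -0.061 and *Dap3* (mS29) of 0.015. None of the 5 passed with edgeR, and 1 was lower at an adjusted p under 0.05 with DESeq2, where 5.11% of all genes were.

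Of 29 genes for assembly of the mitoribosome and modification or stability of its RNA, 26 had a lower estimate (median -0.17). At an unadjusted p under 0.05, 6 (20.7%) were lower, where 11.2% of all genes were. After adjustment 0 passed with edgeR and 2 with DESeq2, where 5.11% of all genes were lower with DESeq2. *Mpv17l2*, which acts in assembly, had the smallest p, with an FPKM of 21.6, 20.6 and 24.5 in Control and 17.5, 13.3 and 13 in KSPAPN. Its log2 fold change was -0.59 ± 0.15 (SE, adjusted p = 0.0631 with edgeR). The GTPase gene *Mtg1* had one of -0.48 and the small-subunit maturation factor gene *Rbfa* one of -0.28.

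Genes of mitochondrial translation factors had lower estimates. All 14 of the 15 listed factors that were in the table had a lower estimate (median -0.16). At an unadjusted p under 0.05, 5 (35.7%) were lower, where 11.2% of all genes were. *Tsfm*, which encodes the elongation factor EF-Ts, fell. Its FPKM was 16.1, 14.2 and 14.8 in Control and 11.4, 9.63 and 8.77 in KSPAPN, without overlap, and the log2 fold change was -0.59 ± 0.12 (SE, adjusted p = 0.0327 with edgeR). After the GC and length correction it was -0.43 and did not pass (adjusted p = 0.0801, edgeR). *Tufm*, the gene of its partner EF-Tu, had a log2 fold change of -0.26, and *Oxa1l*, which inserts newly made proteins into the inner membrane, one of -0.38, with adjusted p = 0.175 and 0.0918 (edgeR). Of 20 mitochondrial aminoacyl-tRNA synthetase genes, 17 had a lower estimate (median -0.14), 4 were lower at an unadjusted p under 0.05 and 0 passed after adjustment with edgeR or DESeq2. *Yars2*, *Wars2* and *Vars2* had log2 fold changes of -0.46, -0.31 and -0.30.

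The mRNAs made from mitochondrial DNA mostly had higher estimates. Of its 13 mRNAs, 2 had a lower estimate (*mt-Co3* and *mt-Nd3*), the median log2 fold change was 0.22 and 0 passed at an unadjusted p under 0.05. Their share of counts was 7.54% to 9.13% in Control and 8.25% to 12% in KSPAPN, and the groups overlapped. The rRNAs *mt-Rnr1* and *mt-Rnr2* had log2 fold changes of -0.026 ± 0.17 and 0.046 ± 0.20 (SE). Libraries were selected with oligo(dT), and rRNA levels are then those of a residue.

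Genes of cytosolic ribosomal proteins and nuclear subunits of oxidative phosphorylation had mostly lower estimates as well. Of 80 cytosolic ribosomal protein genes tested, 73 had a lower estimate (median -0.21), 38 (47.5%) were lower at an unadjusted p under 0.05, and *Rps18* and *Rpl30* fell after adjustment. Of 77 nuclear subunit genes of oxidative phosphorylation, 74 had a lower estimate (median -0.29), 54 (70.1%) were lower at an unadjusted p under 0.05 and 12 fell after adjustment. Among all genes 11.2% were lower at the unadjusted threshold and 2.25% at the adjusted one. After the GC and length correction the medians were -0.061 and -0.16, beside -0.10 for the mitochondrial ribosomal protein genes. In that fit 0 and 4 genes of these lists passed as lower after adjustment, where 1.87% of all genes did. The 3 lists share the same libraries but differ in transcript length. The longest transcripts had a median of 1076.5 bases for cytosolic ribosomal proteins and 1129 bases for oxidative phosphorylation, against 1884 bases for the members. Their median GC content was 51.0%, 50.2% and 49.7% in that order. Whether the median log2 fold changes of the 3 lists differ was not tested.

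**Figure D5:**
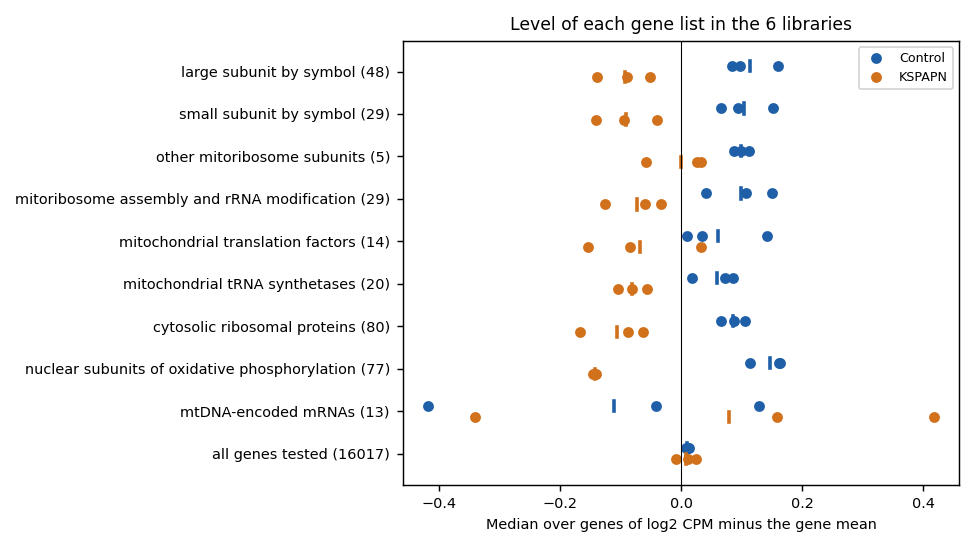
Median over the genes of each list of log2 CPM minus the mean of the gene, for the 3 Control (blue) and 3 KSPAPN (orange) libraries, with a bar at the mean of each group and the number of genes tested in parentheses. In both mitoribosome subunits all Control libraries lie above 0 and all KSPAPN libraries below, in the mRNAs of mitochondrial DNA the groups overlap, and all genes tested lie near 0 in every library.

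A different test of the counts gave more calls in the same direction. With DESeq2, 7 members were lower at an adjusted p under 0.05, where 5.11% of 14588 genes were, and 0 were higher. They were *Mrpl12*, *Mrpl2*, *Mrpl38*, *Mrps18a*, *Mrps26*, *Mrps28* and *Mrpl57*. With total counts in place of TMM, 14 members had a lower and 3 a higher estimate at p under 0.05 before adjustment, where 7.65% of all genes were lower and 12.8% higher. With that scaling the median of the members was -0.13 and that of all genes 0.081. The distance between these medians was -0.21 with both scalings. A change of scaling shifts all genes of a library together, so this distance is no check on the scaling.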

How the data were processed

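Whole-kidney RNA of 3 Control and 3 KSPAPN libraries, each a pool of 3 mice, was sequenced after selection with oligo(dT). The authors deposited raw read counts per gene without normalization. They also deposited FPKM that they had scaled by gene length and by a library total that is not stated, and union exon lengths of GENCODE M21 fitted these values within 5% for 95.9% to 96.0% of genes with a count over 100. The submitters' processing notes name STAR 2.5, TopHat, HTSeq 0.6.1, DESeq2 and edgeR, with no role or order, while genome build, annotation and strandedness are not given in any source used here. Symbols and biotypes were taken from GENCODE M21 (GRCm38), which matched 54495 of 54532 identifiers.

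Samples were grouped by their labels. Counts were tested with edgeR 4.0.16 in R 4.3.3 (TMM, minimum count 10, minimum total 15, quasi-likelihood test, two-sided, Benjamini-Hochberg adjustment over 16017 genes). Standard errors are the log2 fold change divided by the square root of the F statistic. Alternatives were DESeq2 1.42.0, RLE factors, total counts only, TMM without mitochondrially encoded genes and *Adipoq*, no filter, limma 3.58.1 on log2(FPKM + 1) and log2(FPKM + 0.1), a replicate block, omission of single libraries, and a correction in which a trend against GC content and length of the longest transcript (splines with 5 degrees of freedom, genes with mean log2 CPM over 3) was removed from each library. Python 3.11.15, pandas 2.3.3 and matplotlib 3.10.9 were used for tables and plots. The fits were tested on simulated counts with a common dispersion and changes larger than those of the members. That test does not bear on changes as small as these. Intervals and standard errors do not cover errors of read assignment.

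The members follow from their symbols. They and the lists of related genes and markers were chosen with earlier results of these data known. Genes are named where they passed the adjusted threshold, where they were among the 6 lower and 3 higher of a subunit by smallest p or the 3 highest and 3 lowest by mean FPKM, where their place or role in the ribosome called for it, where they did not pass the filter, and, in the related lists, up to 3 by smallest p. Other genes named were chosen after their values were seen.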

Additional observations from a re-analysis of the deposited data

How the results depend on the processing

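The median log2 fold change of the members was negative under every alternative run. Members lower at an adjusted p under 0.05 numbered 3 in the reported test (2.25% of all genes were) and 7 with DESeq2 (5.11%). They numbered 11 without the filter on low counts (3.53%) and 13 with the replicate block (4.40%). Limma gave 1 on log2(FPKM + 1) (0.737% of all genes) and 1 on log2(FPKM + 0.1) (0.681%). Total counts only gave 1 (1.22%), and the GC and length correction gave 1 lower (1.87%) and 1 higher member (0.606%). With limma and total counts the 1 was *Mrpl12*, and the cause of these shifts was not tested. Leaving out single libraries gave 0 to 11. There were 0 without Control replicate 1 (0.206% of all genes), Control replicate 2 (0.700%) or KSPAPN replicate 3 (0.366%). There was 1 without KSPAPN replicate 2 (*Mrpl12*, with 1.47% of all genes), and there were 11 without KSPAPN replicate 1 (3.47%). At an unadjusted p under 0.05, the 33 lower members became 14 with total counts (7.65% of all genes, 11.2% in the reported test) and 19 to 29 without single libraries, and the 2 higher members became 0 with DESeq2 and with no filter, 1 with both limma fits and with the GC and length correction, and 0 to 4 without single libraries. Medians were -0.10 (members), -0.091 (large subunit) and -0.18 (small subunit) after the GC and length correction. With total counts they were -0.13 (members), -0.12 (large) and -0.14 (small).

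Of 37 named members tested, 4 of them named after their values were seen, 7 changed sign under some alternative. After the GC and length correction the log2 fold change was 0.063 for *Mrpl34*, 0.045 for *Mrpl54* and -0.059 for *Mrps30*, and with total counts it was 0.042 for *Mrpl33*. Without single libraries it ranged from -0.094 to 0.051 for *Mrpl33*, -0.033 to 0.20 for *Mrpl50*, -0.27 to 0.0068 for *Mrps18c*, -0.16 to 0.076 for *Mrpl47* and -0.077 to 0.22 for *Mrps30*.

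Replicate numbers in the labels mark no shared litter, cohort or batch, and correlations of the deviations of same-numbered libraries were 0.054, 0.15 and 0.17, so the numbers were not taken to pair libraries, although each library correlated best with its own number. The replicate block moved the members lower at an adjusted p under 0.05 from 3 to 13. With pools as the unit and 3 per group, members with a standard error near 0.11 and a log2 fold change near -0.20 lie below what passed after adjustment.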
